A study of Mus musculus with 6 samples.

Results

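The 50 genes described here encode proteins that license, copy and divide the genome, or that stop cells from doing so. They were chosen by symbol from a fixed list of cell cycle and DNA replication genes, and all 50 were among the 23337 symbols of the deposited counts. RNA was sequenced from mouse outer hair cells, the cochlear sensory cells that amplify sound, at E18.5. The groups were 3 Insm1-KO libraries and 3 Insm1-Het libraries, heterozygous animals being the control, since no wild-type library was analysed here. Cells of both groups came from the organ of Corti and were purified by fluorescence-activated sorting for an Insm1-GFP-Cre signal, so every cell sequenced carried that allele and the label that drove the sort is the gene under study. The labels do not give the deleted part of Insm1, or whether each library is its own animal, a pool or a litter. The p-values therefore measure the spread between these libraries, which may be technical.

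A cell enters the cycle when D-type cyclins and their kinases phosphorylate the retinoblastoma (pocket) proteins, which frees E2F factors to transcribe genes of DNA synthesis. The MCM helicase is loaded at origins in G1, DNA is copied in S phase, and cyclin B with Cdk1 drives mitosis. Progenitors of the organ of Corti leave the cycle before hair cells differentiate. In mice, the inhibitors Cdkn1b and Cdkn2d and the pocket protein Rb1 are known to establish or keep that exit, and hair cells are post-mitotic at the stage sampled.

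The libraries held 9259736, 7705177 and 9748629 counts in Insm1-KO and 11738214, 10721902 and 12427039 counts in Insm1-Het, so the knockout libraries were the shallower ones. Levels are in CPM, the counts of a gene over the TMM-scaled library total. A count of 0 allowed up to 3 counts, or 0.32 to 0.391 CPM in Insm1-KO libraries and 0.237 to 0.281 CPM in Insm1-Het libraries, for counting error only. Insm1 itself stood at 78.7, 60.3 and 18.7 CPM in Insm1-KO, against 109.3, 116.2 and 69.2 CPM in Insm1-Het, so its transcript was counted in every knockout library. The sorted cells carried hair cell transcripts in every library: the summed level of 12 hair cell markers was 9946 to 11460 CPM in Insm1-KO and 10050 to 10390 CPM in Insm1-Het, with 0 of the 12 at 0. The median correlation of a library with the other libraries was 0.761 for Insm1-KO replicate 3 and 0.80 to 0.834 for the rest.

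The promoters of these genes carry known cell cycle letters, and 6 of them are shown because they belong to transcripts at both ends of detection. Sequences are from RefSeq on GRCm38.p6, from 150 bases before the transcription start to 30 bases after it, 5′ to 3′ on the gene's strand. Capitals mark the CHR element TTTGAA, the CCAAT box (CCAAT) and E2F sites (TTTCCCGC, TTTCGCGC, TTTGCCGC or TTTGGCGC), each read on both strands. In mammalian cells the CHR element is bound by the MuvB-containing complexes that repress or activate mitotic genes, the CCAAT box by NF-Y, and E2F sites by E2F and pocket proteins. Ccnb2 lies at chr9:70421525-70421704 (minus strand), Cdc20 at chr4:118437314-118437493 (minus strand), Cdk1 at chr10:69352883-69353062 (minus strand), Kif23 at chr9:61946770-61946949 (minus strand) and Prr11 at chr11:87108685-87108864 (minus strand). Mcm6, a replication gene with E2F sites and no CHR element in the scanned window, lies at chr1:128359676-128359855 (minus strand).
Ccnb2: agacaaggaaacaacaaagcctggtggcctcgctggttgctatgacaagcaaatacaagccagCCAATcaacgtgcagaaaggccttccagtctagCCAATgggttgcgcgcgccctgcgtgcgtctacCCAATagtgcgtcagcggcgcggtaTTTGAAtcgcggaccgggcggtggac
Cdc20: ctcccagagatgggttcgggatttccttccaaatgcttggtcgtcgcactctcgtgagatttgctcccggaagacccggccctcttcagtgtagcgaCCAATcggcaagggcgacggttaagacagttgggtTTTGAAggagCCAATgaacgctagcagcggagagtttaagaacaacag
Cdk1: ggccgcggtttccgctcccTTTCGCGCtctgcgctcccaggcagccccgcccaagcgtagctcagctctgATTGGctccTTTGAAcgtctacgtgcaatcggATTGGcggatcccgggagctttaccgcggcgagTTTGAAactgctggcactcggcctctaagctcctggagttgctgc
Kif23: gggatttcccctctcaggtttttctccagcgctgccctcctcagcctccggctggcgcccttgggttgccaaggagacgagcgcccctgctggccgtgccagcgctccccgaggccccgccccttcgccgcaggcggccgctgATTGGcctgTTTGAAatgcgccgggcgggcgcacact
Prr11: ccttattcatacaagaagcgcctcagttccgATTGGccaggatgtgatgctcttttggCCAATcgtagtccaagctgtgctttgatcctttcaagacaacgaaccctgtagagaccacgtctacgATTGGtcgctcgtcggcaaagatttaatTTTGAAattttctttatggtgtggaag
Mcm6: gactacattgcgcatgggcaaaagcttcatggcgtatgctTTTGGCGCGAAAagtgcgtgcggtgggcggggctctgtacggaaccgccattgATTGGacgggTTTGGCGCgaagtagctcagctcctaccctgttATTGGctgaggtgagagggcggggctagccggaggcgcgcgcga

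Of the 50 genes, 40 had a promoter in the RefSeq table, read over 300 bases from 250 before the most upstream start to 50 after it. A CHR element was present in 13 of 17 promoters of G2 and mitosis genes (76.5%), against 18.2% of all 27025 promoters. A CHR element together with a CCAAT box was found in the same 13 mitotic promoters, against 7.2% of all promoters. E2F sites stood in 6 of 7 promoters of replication licensing genes (85.7%), against 2.3% of all promoters, and in 1 of 17 mitotic promoters. CHR elements thus stood mainly in mitotic promoters and E2F sites mainly in licensing promoters. A match is a description of the sequence and not a measured binding site.

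**Figure D1:**
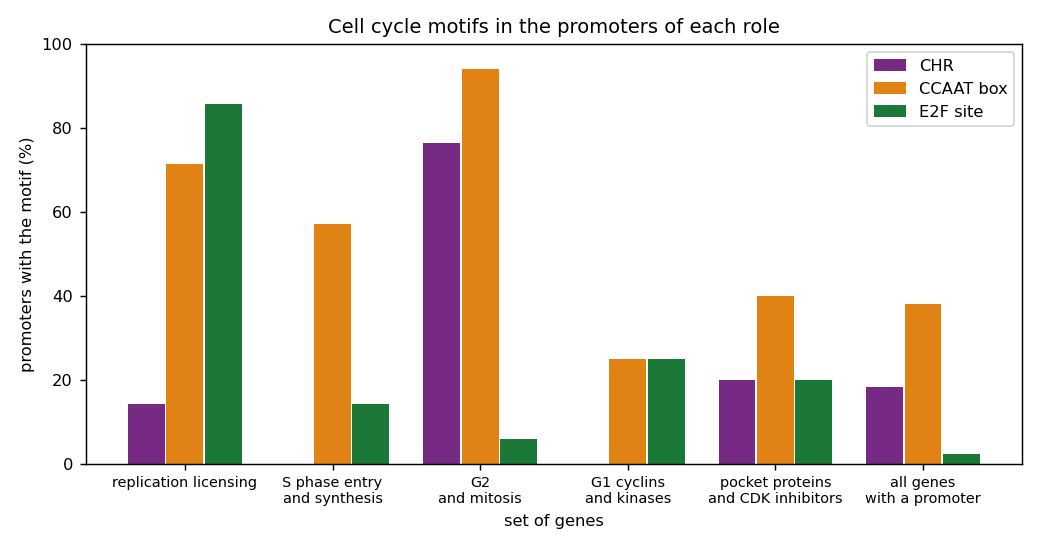
Share of promoters (y axis, percent) that hold a CHR element, a CCAAT box or an E2F site, for each role and for all 27025 genes with a promoter (x axis). The CHR element stands in 76.5% of G2 and mitosis promoters, and the E2F site in 85.7% of replication licensing promoters.

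As a role, inhibitors and pocket proteins had the highest summed level, and genes of G2 and mitosis the lowest, in Insm1-KO and Insm1-Het libraries alike. The 7 inhibitors and pocket proteins held 61% to 71.1% of the members' summed CPM in Insm1-KO libraries and 62.6% to 67.3% in Insm1-Het libraries. Cdkn1c alone held 27.5% to 51.6% in Insm1-KO and 39.2% to 42.2% in Insm1-Het, and Rb1 11.2% to 23.5% and 12.9% to 18%. The 20 genes of G2 and mitosis held 1.95% to 3.79% in Insm1-KO libraries and 1.94% to 3.37% in Insm1-Het libraries. For comparison between genes, CPM were divided by the length of the annotated exons in kilobases and ranked among all genes with a known length. The median percentile, averaged over the 6 libraries, was 84.3 for inhibitors and pocket proteins, 61 for G1 cyclins and kinases, 60.9 for replication licensing, 56.2 for S phase entry and synthesis, and 39.1 for G2 and mitosis. A gene with 0 counts in every library ranked at 22.2, since genes at 0 share a rank.

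**Figure D2:**
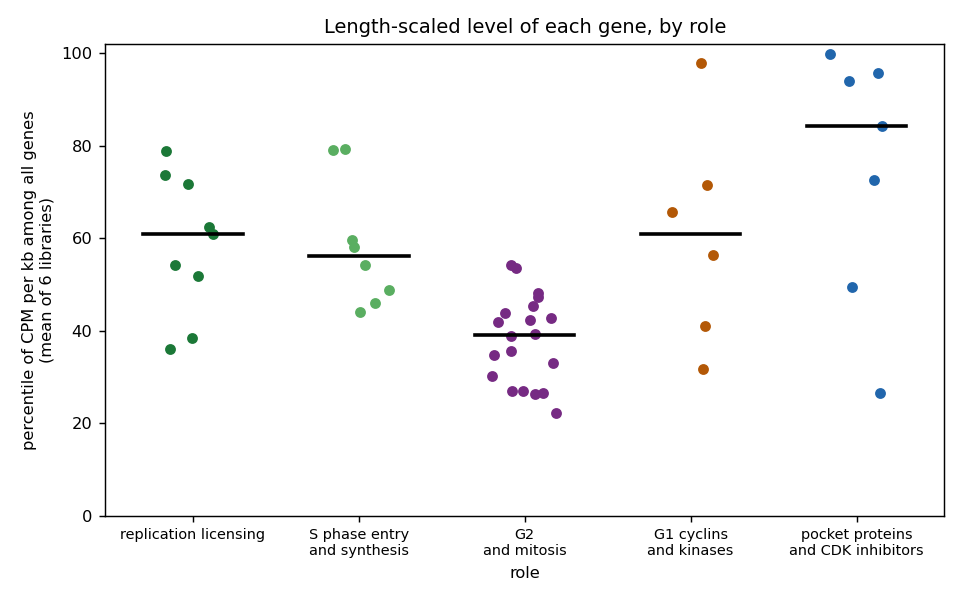
Percentile of each gene's CPM per kilobase among all genes (y axis, mean of the 6 libraries), by role (x axis). Each point is 1 gene and each bar the median of its role, from 84.3 for pocket proteins and CDK inhibitors down to 39.1 for G2 and mitosis.

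Genotype differences did not pass the test for any member. In the edgeR quasi-likelihood test, with p adjusted by Benjamini-Hochberg over all tested genes, 0 of the 34 members that passed the filter on low counts were called, beside 0.00% of all 11714 genes tested. The other 16 members fell below the filter and are given by their counts. DESeq2 also called 0 members, beside 0.378% of its 12181 genes, and limma-voom called 0, beside 0.00%. At an unadjusted p under 0.05, edgeR had 1 member (2.94% of 34), beside 5.34% of all tested genes. This was Prr11, higher in Insm1-KO, beside 3.19% of all tested genes in that direction, and 0 members lower, beside 2.15%. DESeq2 had 4 members at that unadjusted level and limma-voom 2. The share of all genes was not computed for these methods, so neither count can be set against a background. The groups did not overlap for 2 members higher in Insm1-KO, Mcm7 and Rbl1 (5.88% of 34), beside 5.08% of all tested genes, and for 2 members lower, Cenpf and Kif11 (5.88%), beside 6.10%. These shares were near the background. Kif11 passed the filter on low counts through its Insm1-Het libraries only, so its lack of overlap was fixed by the filter. The median log2 fold change of the 34 tested members was -0.22, with 23 of them below 0 (67.6%), beside a median of 0.015 over all tested genes, of which 49.1% were below 0. The members below 0 were spread over all 5 roles, and every S phase gene tested was among them.

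**Figure D3:**
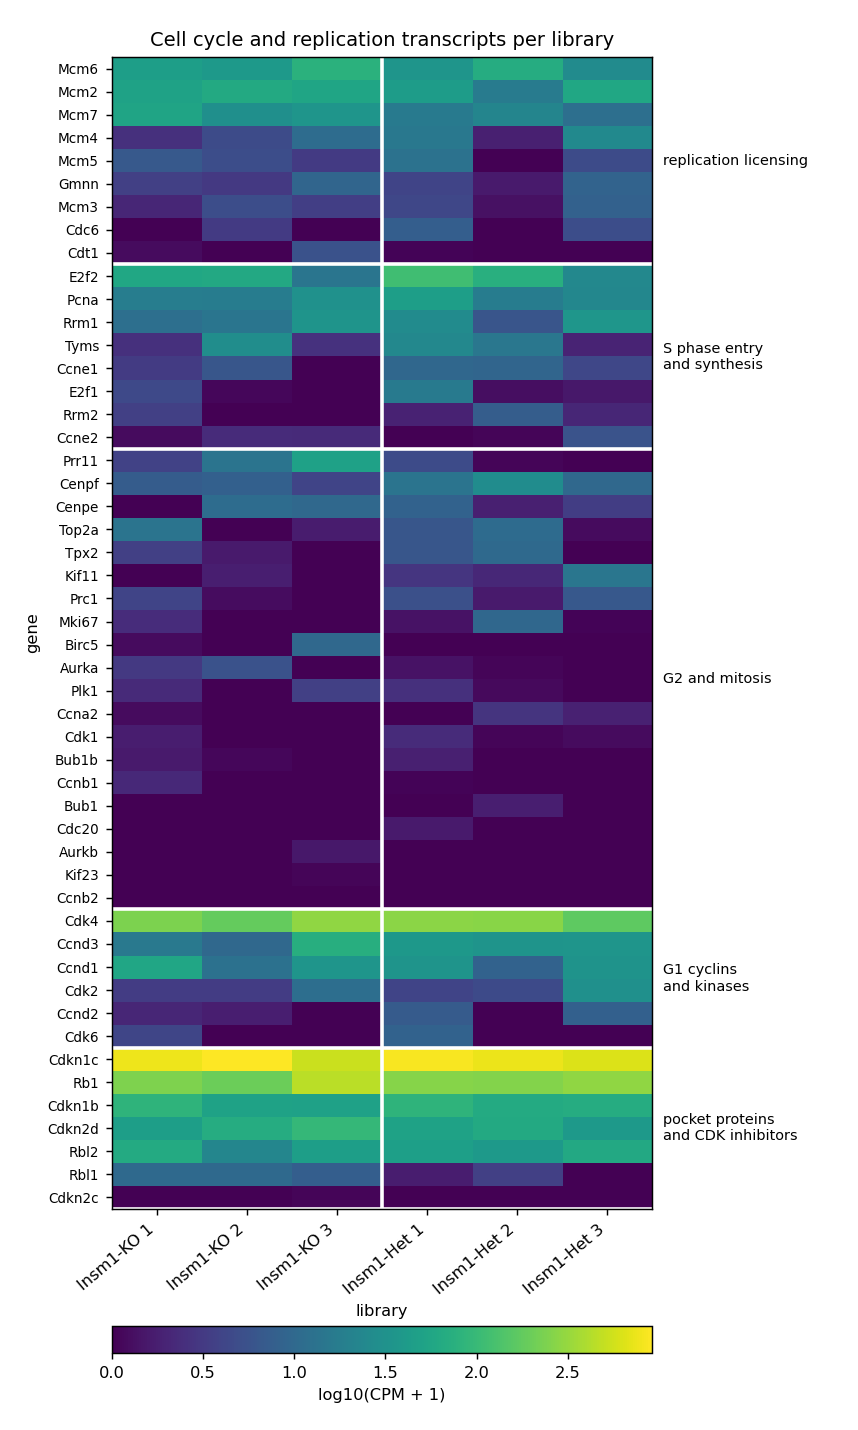
Level of each of the 50 genes (rows, grouped by role and ordered by mean level) in each library (columns, Insm1-KO left of Insm1-Het), as log10(CPM + 1) in colour. Cdkn1c, Cdk4 and Rb1 are bright in all 6 libraries, and most G2 and mitosis rows are dark, with single bright cells.

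The CDK inhibitors and pocket proteins hold cells out of the cycle. Cdkn1c, the imprinted inhibitor p57 of cyclin-dependent kinases (chromosome 7, 143458339 to 143461050 on GRCm38), was the most abundant of the 50 genes in every library, at 776, 911 and 532 CPM in Insm1-KO libraries and 848, 750 and 643 CPM in Insm1-Het libraries. Its mean was 740 ± 192 CPM in Insm1-KO and 747 ± 103 CPM in Insm1-Het (SD, n = 3 each), and its length-scaled level reached percentile 99.9. The genotypes overlapped, and its log2 fold change of -0.01 had a 95% interval from -0.49 to 0.47, the narrowest among the 34 tested members. Rb1, the founding pocket protein, was at 244, 199 and 456 CPM in Insm1-KO and 266, 257 and 294 CPM in Insm1-Het. Insm1-KO replicate 3 was the highest library for Rb1 and replicate 2 the lowest, on either side of all the Insm1-Het values.

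Cdkn1b, the inhibitor p27, stood at 82.1, 49.3 and 48.0 CPM in Insm1-KO, against 82.2, 63.3 and 67.2 CPM in Insm1-Het. Cdkn2d, the Ink4-type inhibitor p19 of Cdk4 and Cdk6, stood at 44.3, 66.4 and 93.3 CPM in Insm1-KO, against 49.3, 62.7 and 38.3 CPM in Insm1-Het. Neither gene separated the genotypes, with log2 fold changes of -0.25 for Cdkn1b (95% interval -1.14 to 0.65) and 0.44 for Cdkn2d (95% interval -0.53 to 1.42). Cdkn2c, the related inhibitor p18, had 1 count in Insm1-KO replicate 3 and 0 counts in the other libraries. The Ink4-type pair was thus split between Cdkn2d at percentile 94.1 and Cdkn2c at 26.5 on the length-scaled level.

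The pocket proteins Rbl1 and Rbl2, known as p107 and p130, repress E2F targets with different E2F partners. Rbl2 averaged 43.2 ± 20.7 CPM in Insm1-KO and 48.2 ± 11.7 CPM in Insm1-Het (SD, n = 3 each). Rbl1 had 9.40, 9.26 and 6.68 CPM in Insm1-KO, against 0.733, 2.62 and 0 CPM in Insm1-Het. All Insm1-KO values of Rbl1 were above all Insm1-Het values. Its log2 fold change was 2.91 (SE 1.63), which did not pass (edgeR, Benjamini-Hochberg adjusted p = 0.938). The exact permutation p, two-sided, was 0.1, the smallest that 3 libraries against 3 can give. Rbl1 and Rbl2 were named after their values were seen.

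The G1 cyclins and kinases start the cycle and were led by Cdk4. Cdk4, the kinase partner of D-type cyclins, was at 236, 181 and 295 CPM in Insm1-KO libraries and 279, 269 and 168 CPM in Insm1-Het libraries. Its means of 237 ± 56.8 CPM and 239 ± 61.3 CPM (SD, n = 3 each, Insm1-KO and Insm1-Het) gave a log2 fold change of -0.01 (95% interval -0.62 to 0.60). Exons of Cdk4 overlap those of Tspan31 on the other strand over 641 bases, so its reads cannot be told apart from that gene's without a known strand setting. The same limit holds for Ccnd1, Ccnd3, Rb1, Rbl2 and Cdkn1c, whose exons overlap other genes over 1100, 361, 488, 892 and 625 bases. The relative Cdk6 had 30, 0 and 0 counts in Insm1-KO and 92, 0 and 0 counts in Insm1-Het, so counts came from replicate 1 of each genotype and from no other library.

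Ccnd1, cyclin D1, was at 55.0, 11.7 and 33.8 CPM in Insm1-KO and 33.4, 7.59 and 32.3 CPM in Insm1-Het. Replicate 2 was the lowest library of each genotype for Ccnd1. Ccnd3, cyclin D3, was at 14.8, 9 and 70 CPM in Insm1-KO and 36.7, 33.1 and 33.5 CPM in Insm1-Het. The Insm1-KO values of Ccnd3 lay on both sides of the closely grouped Insm1-Het values, and without Insm1-KO replicate 3 its log2 fold change was -1.52, where it was -0.14 with all libraries. Ccnd2 stayed at or below 7.03 CPM in every library. Cdk2, the kinase of cyclins E and A, was at 2.35, 2.35 and 10.8 CPM in Insm1-KO and 3.10, 3.65 and 29.9 CPM in Insm1-Het, with replicate 3 the highest library of each genotype. The smallest adjusted p among these genes was 0.96, for Ccnd2 (edgeR, Benjamini-Hochberg).

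Replication licensing genes were counted unevenly, although Mcm2 to Mcm7 encode the 6 subunits of a single helicase ring. Mcm6, Mcm2 and Mcm7 had mean length-scaled levels of 10.2, 6.73 and 6.12 CPM per kilobase over the 6 libraries. Mcm4, Mcm5 and Mcm3 had 2.57, 1.16 and 0.825 CPM per kilobase. Mcm6 was at 44.6, 39.4 and 76.6 CPM in Insm1-KO and 34.0, 66.2 and 26 CPM in Insm1-Het. Mcm2 was at 50.0, 61.04 and 54.5 CPM in Insm1-KO and 42.2, 16.2 and 57.1 CPM in Insm1-Het. The genotypes overlapped for both genes.

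Mcm7 (chromosome 5, 138164583 to 138172422 on GRCm38) was the licensing gene with the smallest p, with 52.3, 28.4 and 34.4 CPM in Insm1-KO libraries and 15.1, 21.5 and 10.99 CPM in Insm1-Het libraries. Each Insm1-KO value of Mcm7 was above each Insm1-Het value. The means were 38.4 ± 12.4 CPM in Insm1-KO and 15.8 ± 5.27 CPM in Insm1-Het (SD, n = 3 each), a log2 fold change of 1.28 with a 95% interval from -0.06 to 2.61. This did not pass (edgeR, Benjamini-Hochberg adjusted p = 0.938), and its exact permutation p, two-sided, was 0.1. Exons of Mcm7 overlap those of Ap4m1 on the other strand over 321 bases and hold 2 microRNA genes, so its count is uncertain to that extent.

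Mcm4 had a log2 fold change of -1.35 that did not pass, at 1.602, 3.78 and 10.2 CPM in Insm1-KO and 14.2, 0.843 and 24.7 CPM in Insm1-Het. The loading factors Cdc6 and Cdt1, which bring the helicase to origins, were counted in 3 libraries each. Cdc6 had 0, 17 and 0 counts in Insm1-KO and 83, 0 and 51 counts in Insm1-Het, and Cdt1 had 2, 0 and 41 counts in Insm1-KO and 1, 0 and 0 counts in Insm1-Het. Gmnn, the geminin that blocks Cdt1, averaged 4.29 ± 3.33 CPM in Insm1-KO and 3.83 ± 3.602 CPM in Insm1-Het (SD, n = 3 each).

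Summed over the 9 licensing genes, the level was 158, 145 and 193 CPM in Insm1-KO and 131, 106 and 142 CPM in Insm1-Het. It was the only role whose sums did not overlap between genotypes. The margin was narrow, at 145 CPM in Insm1-KO replicate 2 against 142 CPM in Insm1-Het replicate 3. The TMM factors of these libraries were 0.997 and 1.0218, so the margin depends on the scaling. Mcm2, Mcm6 and Mcm7 made up most of each sum. The summed level of 17 supporting cell markers, which include the member Cdkn1b, also lay higher in Insm1-KO. It was 1900 to 2689 CPM in Insm1-KO, against 1610 to 1868 CPM in Insm1-Het. This margin was narrow too, at 1900 CPM in Insm1-KO replicate 1 against 1868 CPM in Insm1-Het replicate 3. Of those 17 markers, 15 were tested, 0 were called, and 0 had no count in all libraries. The genotypes did not overlap for 3 of the 15 higher in Insm1-KO and for 2 lower, beside 5.08% and 6.10% of all tested genes. The 3 were Lfng, S100a1 and Lgr5, with log2 fold changes of 1.58, 0.69 and 0.74. The 2 were Gjb2 and Sparcl1, with -2.41 and -2.96. Gjb6, a gap junction gene of supporting cells that was not tested, was at 0, 0 and 0.556 CPM in Insm1-KO and 2.04, 0 and 0.237 CPM in Insm1-Het. The part of supporting cells in the licensing sums was not tested. In bulk RNA a change in the number of cells of a type and a change in RNA per cell cannot be told apart.

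**Figure D4:**
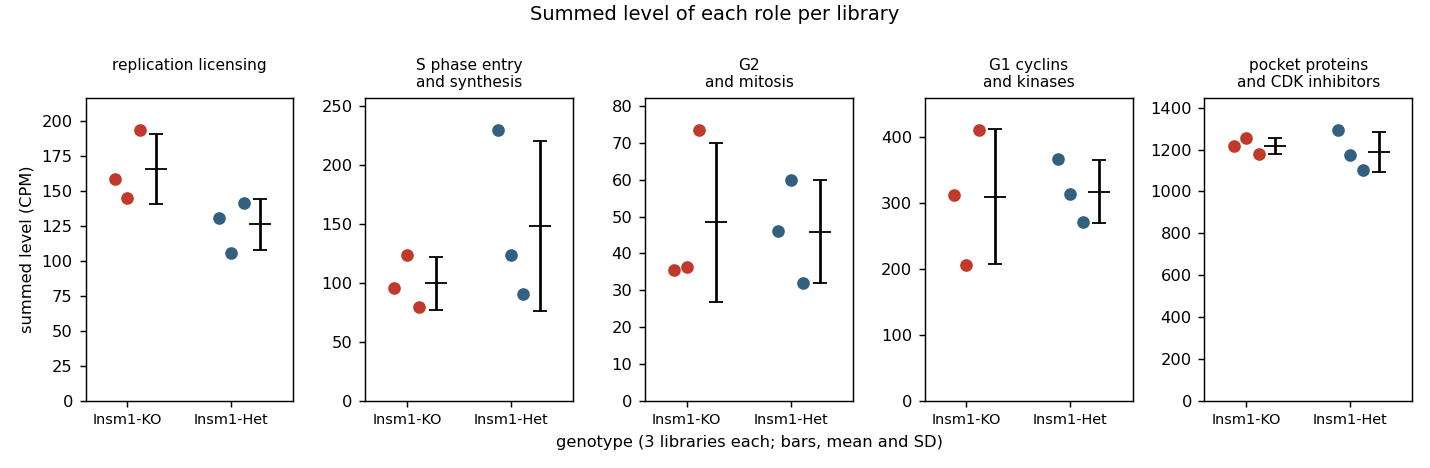
Summed level of all members of each role (y axis, CPM, from 0) in each library, Insm1-KO left of Insm1-Het, with the mean and SD of 3 libraries as bars. Replication licensing is the panel without overlap, by a narrow margin that depends on the scaling, 145 to 193 CPM in Insm1-KO and 106 to 142 CPM in Insm1-Het.

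Genes of S phase entry and synthesis had fold changes below 0 for all 7 tested members, with a median log2 fold change of -0.67 beside 0.015 over all tested genes. With 1 library left out, the direction turned for 3 of the 4 most abundant, Pcna, Tyms and Rrm1, and not for E2f2; it was not followed for the other 3. Pcna was at 0.12 and Tyms at 0.45 (log2 fold change) without Insm1-Het replicate 1, and Tyms at 0.18 without Insm1-KO replicate 1 or 3. Rrm1 was at 0.32 without Insm1-Het replicate 3, 0.079 without Insm1-KO replicate 1 and 0.025 without Insm1-KO replicate 2. No member passed, and the smallest adjusted p was 0.979, for E2f2 (edgeR, Benjamini-Hochberg). E2f2, an activating E2F factor and the most abundant of these genes, was at 57.3, 59.9 and 13.2 CPM in Insm1-KO and 111, 73.2 and 22.9 CPM in Insm1-Het. Replicate 3 was the lowest library of each genotype for E2f2, and the ranges overlapped. The other activator E2f1 had 33, 1 and 0 counts in Insm1-KO and 185, 3 and 7 counts in Insm1-Het.

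Pcna, the sliding clamp of DNA polymerase, was at 17.0, 16.4 and 30.6 CPM in Insm1-KO and 44.5, 16.5 and 22.8 CPM in Insm1-Het. Rrm1, the large subunit of ribonucleotide reductase, was at 11, 13.04 and 32.8 CPM in Insm1-KO and 25.5, 5.06 and 34.5 CPM in Insm1-Het. Its S phase partner Rrm2 had 25, 0 and 0 counts in Insm1-KO and 11, 70 and 14 counts in Insm1-Het. Tyms, thymidylate synthase, was at 1.602, 27.4 and 1.67 CPM in Insm1-KO and 23.4, 14.1 and 0.948 CPM in Insm1-Het. Cyclin E, which activates Cdk2 at the G1 to S boundary, was low, with means of 2.49 ± 2.62 CPM of Ccne1 in Insm1-KO and 6.75 ± 2.99 CPM in Insm1-Het (SD, n = 3 each). The summed level of the role was 79.6 to 123 CPM in Insm1-KO and 90.9 to 229 CPM in Insm1-Het, and the value of 229 CPM came from Insm1-Het replicate 1. The log2 ratio of the mean sums was -0.57, and -0.11 without that library.

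Transcripts of G2 and mitosis were sparse: 10 of the 20 averaged below 1 CPM over the 6 libraries, and 8 passed the filter on low counts. Ccnb2, cyclin B2, had 0 counts in all 6 libraries. Cdc20, which activates the anaphase-promoting complex, had 8 counts in Insm1-Het replicate 1 and 0 in every other library. Aurkb, the Aurora kinase of the centromere, Bub1, a checkpoint kinase, and Kif23, a kinesin of cytokinesis, were likewise counted in 1 library each, with 5, 8 and 1 counts. Of the 20 genes, 1 was counted in all 6 libraries, Cenpf, and the highest single values were those of Prr11, Cenpf and Kif11, at 48.6, 26.5 and 13.5 CPM. Cdk1, the mitotic kinase, had 7, 0 and 0 counts in Insm1-KO and 16, 1 and 3 counts in Insm1-Het. Ccnb1, its cyclin B1 partner, had 11, 0 and 0 counts in Insm1-KO and 1, 0 and 0 counts in Insm1-Het. The promoters shown above were chosen by detection, so it follows from the choice that all but 1 of those with a CHR element, that of Prr11, belong to this nearly uncounted set. CHR elements also stood in the promoters of Cenpf, Top2a and Kif11, which were among the better counted mitotic genes, and not in that of Cenpe.

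Mki67, the proliferation marker Ki-67, had 13, 0 and 0 counts in Insm1-KO and 5, 93 and 1 counts in Insm1-Het. Top2a, the topoisomerase that untangles replicated DNA, was at 12.7, 0 and 0.668 CPM in Insm1-KO and 5.13, 9.83 and 0.237 CPM in Insm1-Het. Both genes were highest in 1 library of each genotype, Insm1-KO replicate 1 and Insm1-Het replicate 2. Birc5, the survivin subunit of the chromosomal passenger complex, had 2, 0 and 80 counts in Insm1-KO and 0 counts in each Insm1-Het library. Ccna2, Plk1, Aurka, Bub1b, Tpx2 and Prc1 stayed at or below 9.18 CPM in every library. The number of mitotic genes with any count was 13, 8 and 8 in Insm1-KO and 14, 13 and 8 in Insm1-Het, and the knockout libraries were also the shallower ones. The part of depth in that number was not tested.

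Cenpf, the large kinetochore protein mitosin, was at 6.30, 7.04 and 3.005 CPM in Insm1-KO and 12.9, 26.5 and 9.01 CPM in Insm1-Het. All Insm1-KO values of Cenpf lay below all Insm1-Het values, with a log2 fold change of -1.57 (SE 0.97) that did not pass (edgeR, Benjamini-Hochberg adjusted p = 0.938). Kif11, the kinesin that separates spindle poles, named after its values were seen, had 0, 6 and 0 counts in Insm1-KO and 23, 12 and 171 counts in Insm1-Het. Its groups did not overlap either, which was fixed by the filter on low counts, and 171 of the counts came from a single library. Cenpe, a kinetochore kinesin, pointed the other way, at 0, 10.04 and 8.90 CPM in Insm1-KO and 7.57, 0.843 and 2.45 CPM in Insm1-Het, and it did not pass.

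Prr11, a proline-rich protein known in human cells as a late cell cycle gene (chromosome 11, 87089153 to 87108708 on GRCm38), was the member with the smallest p. It had 27, 99 and 437 counts in Insm1-KO libraries and 46, 1 and 0 counts in Insm1-Het libraries. These were 2.88, 12.9 and 48.6 CPM in Insm1-KO and 3.75, 0.0937 and 0 CPM in Insm1-Het. The genotypes overlapped, since Insm1-Het replicate 1 lay above Insm1-KO replicate 1. The log2 fold change was 4.05 (SE 1.64), with an unadjusted p of 0.0273 and a Benjamini-Hochberg adjusted p of 0.92 by edgeR. Its exact permutation p, two-sided, was 0.2. Without Insm1-KO replicate 3, which held 71.2% of its summed CPM, the log2 fold change was 2.61, and it was 8.57 without Insm1-Het replicate 1.

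The mitotic sum was 35.5, 36.4 and 73.5 CPM in Insm1-KO and 46.0, 59.8 and 31.9 CPM in Insm1-Het. Prr11 made up most of the highest sum, that of Insm1-KO replicate 3. The remaining 19 genes, a set chosen after the values were seen, summed to 32.6, 23.5 and 24.8 CPM in Insm1-KO and 42.3, 59.8 and 31.9 CPM in Insm1-Het. These sums overlapped between the genotypes through Insm1-KO replicate 1 and Insm1-Het replicate 3.

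**Figure D5:**
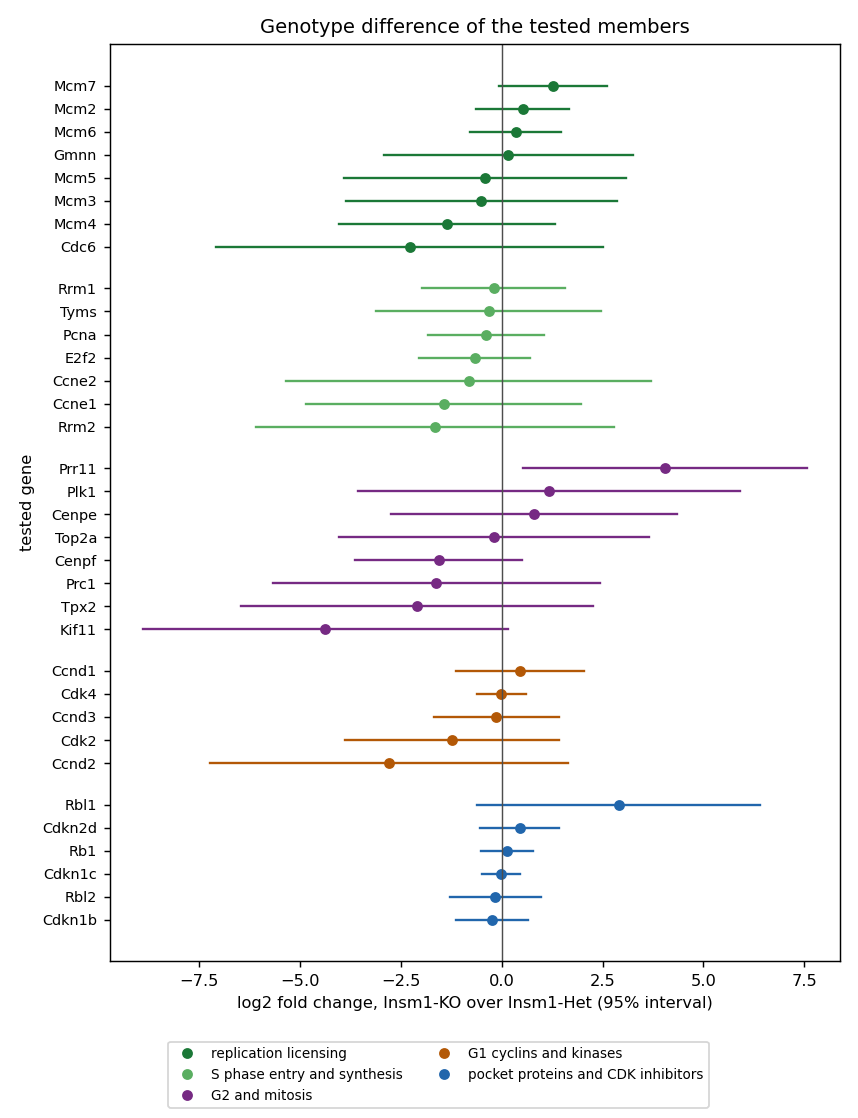
Log2 fold change of Insm1-KO over Insm1-Het (x axis) with its 95% interval for the 34 tested members (y axis), coloured by role. All intervals but that of Prr11 include 0, and they are narrowest for the abundant Cdkn1c, Cdk4 and Rb1.

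The rest of the pathway was read from 3 wider lists. Of 44 further replication genes, 36 were tested, 0 were called over all genes by edgeR, 0 had an unadjusted p under 0.05 in the higher direction and 2 in the lower, beside 3.19% and 2.15% of all tested genes. The genotypes did not overlap for 1 of the 36 higher and 6 of the 36 lower, beside 5.08% and 6.10% of all tested genes. Of the 6, Gins3 and Wdhd1 passed the filter on low counts through Insm1-Het only, so their lack of overlap was fixed by the filter. The median log2 fold change was -0.38, beside 0.015. The 2 lower genes at an unadjusted p under 0.05 were Gins3 and Rpa1. Gins3, a subunit of the helicase activator GINS, had 0 counts in every Insm1-KO library and 4.32, 4.03 and 1.82 CPM in Insm1-Het, at least 29.4-fold lower in Insm1-KO when 3 counts over the 3 libraries are taken as its floor. Rpa1, the large subunit of the single-strand binding protein RPA, was at 19.2, 31.6 and 19.7 CPM in Insm1-KO and 48.4, 64.7 and 59.0 CPM in Insm1-Het. Its groups did not overlap, and its Benjamini-Hochberg adjusted p was 0.92 by edgeR.

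Of 45 further mitotic genes, 23 were tested, 0 were called, 0 had an unadjusted p under 0.05 in the higher direction and 1 in the lower, beside the same 3.19% and 2.15%. The genotypes did not overlap for 0 higher and 1 lower, beside 5.08% and 6.10% of all tested genes. The median log2 fold change was 0.54, beside 0.015 over all tested genes. Plk4, the kinase of centriole duplication, was at 46.8, 54.3 and 40.3 CPM in Insm1-KO and 97.0, 75.6 and 88.8 CPM in Insm1-Het, without overlap. Cdc25b, the phosphatase that activates Cdk1, was at 127, 178 and 148 CPM in Insm1-KO and 129, 98.99 and 77.7 CPM in Insm1-Het. Of 31 further G1 control genes, 25 were tested, 0 were called, 0 had an unadjusted p under 0.05 in the higher direction and 1 in the lower, again beside 3.19% and 2.15%. The genotypes did not overlap for 0 higher and 1 lower, again beside 5.08% and 6.10%, and the median was -0.09, beside 0.015. Mycn, the N-myc factor, was at 4.06, 4.70 and 6.79 CPM in Insm1-KO and 13.03, 20.4 and 31.5 CPM in Insm1-Het, without overlap. Lin37, a subunit of the MuvB core, was at 14.1, 21.1 and 28.9 CPM in Insm1-KO and 15.1, 7.21 and 3.40 CPM in Insm1-Het. None of these genes passed over all genes.

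Markers of other cell types, some of which divide at this stage, were present to different degrees. Of 8 erythroid genes in the files, 6 were at 0 in all libraries, with sums of 2.67 to 6.19 CPM in Insm1-KO and 0.562 to 1.22 CPM in Insm1-Het. Of 10 immune markers, Csf1r and Aif1 were at 0 throughout and Laptm5 made up most of the sums of 39.6 to 136 CPM in Insm1-KO and 87.5 to 173 CPM in Insm1-Het. Endothelial sums over 8 genes were 8.48 to 34.1 CPM in Insm1-KO and 7.57 to 32.9 CPM in Insm1-Het. Of 12 mesenchymal markers only Twist1 was at 0 in all libraries, and sums were 311 to 384 CPM in Insm1-KO and 265 to 500 CPM in Insm1-Het. Pdgfra alone made up most of each sum, at 175 to 334 CPM in Insm1-KO and 225 to 349 CPM in Insm1-Het. Schwann cell and glial sums over 9 genes were 220 to 238 CPM in Insm1-KO and 150 to 273 CPM in Insm1-Het, with Foxd3 and Cdh19 at 0. Cnp and Sox10 together made up most of each of these sums. The sums over 11 genes of the greater epithelial ridge, which borders the organ of Corti, were 2374 to 3380 CPM in Insm1-KO and 2134 to 3432 CPM in Insm1-Het. Tectb, Tecta and Itih5 made up most of each. Otoa, Crabp1 and Fst stayed at or below 6.402 CPM in every library. Epyc was at 94.0 CPM in Insm1-Het replicate 3 and at most 7.33 CPM elsewhere. Which cells the mitotic counts came from was not tested.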

How the data were processed

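Whole-number read counts per gene symbol, not normalized, were deposited by the authors, with 1 file per library and 23337 symbols each. The submitters' processing notes name HTSeq, STAR and Trimmomatic, with build GRCm38 (mm10). Not given in the sources used here are versions, annotation, strand setting and how multi-mapping reads were handled. Per the labels' protocols, ribosomal RNA was removed and cDNA was primed with random hexamers and amplified, which can lose or multiply rare transcripts unevenly between libraries.

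Of the counts, 0.274% belonged to genes dropped by edgeR's filterByExpr (count minimum 10 and total minimum 15, by genotype), and 11714 genes were tested. Insm1-KO and Insm1-Het were compared with edgeR 4.0.16 (TMM factors, quasi-likelihood F test, genotype as the only term) in R 4.3.3, with Benjamini-Hochberg adjustment over all tested genes and a threshold of 0.05. The procedure was run on simulated data, where recovery of set fold changes was required only at a spread well below that of these libraries. That run therefore does not show what the test can detect at their spread. In these libraries Insm1 itself did not pass (edgeR, Benjamini-Hochberg adjusted p = 0.938). Standard errors are the log2 fold change divided by the square root of F. CPM are counts over the TMM-scaled library total. Exon lengths came from GENCODE M21, which matched 20953 symbols by name and 1920 by synonym. Alternatives used DESeq2 1.42.0, limma 3.58.1, other scalings and filters, a replicate block, and libraries left out in turn.

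The members and lists were chosen with earlier results of these data known. Named with values were the 4 most abundant members of each role, members at an unadjusted p under 0.05, members of at least 5 CPM without overlap of the genotypes, and the 2 smallest p of each wider list. Other members are given by counts or ranges, and where singled out were chosen after their values were seen. Promoters of Cdkn1c and Rb1 were not used here.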

Additional observations from a re-analysis of the deposited data

How the results depend on the processing

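No member passed the adjusted threshold under any of the 15 alternatives. The number at an unadjusted p under 0.05, 1 by edgeR, was 4 with DESeq2, 2 with limma-voom, 4 with the newer form of the edgeR fit and 2 with no filter, and 0 to 3 with a library left out. The 0 came without Insm1-Het replicate 2 or 3, and without Insm1-KO replicate 3 the 1 such member was Ccnd3 in place of Prr11. The share of all genes at that level was not computed for the alternatives. With no filter 1 wider replication gene passed, Chaf1a, whose level was 191 CPM in Insm1-KO replicate 3 and at most 8.85 CPM elsewhere. Some log2 fold changes changed sign. Cdk4 (-0.009) was 0.009 with DESeq2, 0.022 with limma-voom and 0.008 with median-ratio scaling, and Cenpe was -0.77 with limma-voom. Replicate numbers did not pair the libraries (correlations of deviations 0.007 to 0.014 for equal numbers), and with the replicate block the count at an unadjusted p under 0.05 stayed 1, Prr11 had a log2 fold change of 6.05 and Rrm1 one of 0.014. With 1 library left out, the ranges that crossed 0 were -0.84 to 0.32 for Rrm1, -2.95 to 0.45 for Tyms, -0.73 to 0.12 for Pcna, -3.86 to 0.73 for Top2a, -0.10 to 0.87 for Ccnd1, -1.52 to 0.32 for Ccnd3, -2.36 to 0.63 for Cdk2, -0.20 to 0.16 for Cdk4, -0.29 to 0.37 for Rb1, -0.54 to 0.17 for Rbl2 and -0.18 to 0.18 for Cdkn1c. The median over tested members ran from -0.40 to -0.08, and the log2 ratio of the sums from 0.28 to 0.49 for licensing, -0.82 to -0.11 for S phase, -0.35 to 0.31 for G2 and mitosis, -0.28 to 0.20 for G1 cyclins and kinases and -0.008 to 0.097 for inhibitors and pocket proteins. The cause was not tested. At this depth, 10 of 20 mitotic genes averaged below 1 CPM, and whether more reads would have counted them was not tested.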

Other observations

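Several members were counted mostly in a single library. Of the 34 tested members, 7 had at least 50% of their summed CPM in 1 library (20.6%), beside 9.59% of all 11714 tested genes. They were Cdc6, Rrm2, Ccne2, Kif11, Tpx2, Prr11 and Cdk2, with shares from 51.8% for Tpx2 to 78.1% for Kif11. Cdc6, Rrm2, Ccne2, Kif11 and Tpx2 averaged only 1.26 to 2.95 CPM over the 6 libraries, and Cdk2 and Prr11 8.69 and 11.4 CPM. The background was not matched for level, and the part of low level in the share was not tested. The library that held the largest share was Insm1-KO replicate 3 for Prr11, and an Insm1-Het library for the other 6.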
